A study of Xenopus laevis with 12 samples.

Results

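Sox3 binding sites in first introns were examined in Xenopus laevis at 2 stages of development. Members were all ChIP-seq peaks that the annotation software HOMER placed in intron 1 of a transcript, in either of the lists deposited for the study. They numbered 541 of 5300 peaks at stage 11.5, in explants induced to neural plate border, and 14951 of 124076 peaks at stage 9, in blastula stem cells, and made up 15492 of 129376 peaks in all. At stage 11.5, 3 Sox3 libraries came from wild-type animal pole explants injected with Sox3, Wnt8a and Chordin mRNA, and 3 control libraries from explants that received Wnt8a and Chordin mRNA alone. At stage 9, 3 Sox3 libraries came from wild-type animal pole explants injected with Sox3 mRNA, and 3 control libraries from explants for which no treatment is labelled. Sox3 carried a Myc tag, was made from injected mRNA and was precipitated with an antibody against the tag, so the lists describe tagged and not endogenous protein. The lists hold no expression values, and the labelled cell types could not be checked against marker genes. Each stage has 1 peak list called from its libraries together, and neither the read depth nor a spread between replicates can be derived from it.

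Sox3 is a SoxB1 transcription factor. SoxB1 proteins bind DNA through an HMG box, usually beside a partner factor, and are known for maintaining pluripotent and neural progenitor states. The neural plate border is the strip of ectoderm between the neural plate and the epidermis, from which neural crest and placodes arise. A first intron is the intron nearest to the start of a transcript, and enhancers and other regulatory sequence are often found there. The comparisons ask how the sites that Sox3 occupied inside genes at each stage were placed relative to the transcription start site (TSS), in which transcripts they lay, and how many of them were occupied at both stages.

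First introns held more peaks than any other intron rank at both stages. They accounted for 541 of 1537 intron peaks at stage 11.5 (35.2%, Wilson 95% interval 32.9 to 37.6%) and for 14951 of 49864 intron peaks at stage 9 (30.0%, 29.6 to 30.4%). The share was thus 5.21 percentage points higher at stage 11.5 (Newcombe 95% interval 2.83 to 7.67), and the difference passed a two-sided Fisher's exact test (odds ratio 1.27, Benjamini-Hochberg adjusted exact p = 7.74e-05 over 10 tests). Peaks are not replicates, and these tests set 2 lists side by side with no error but that of counting. They also take peaks as independent, although many sites are in both lists and many stage 9 peaks share a host. The p-values and intervals are therefore approximate even for counting error. The direction of this difference depended on the peaks kept. When the stage 9 list was cut to its 5300 peaks of largest area, 35.2% of stage 11.5 and 38.4% of stage 9 intron peaks lay in first introns. This was a difference of -3.23 points (-6.35 to -0.0811, adjusted exact p = 0.115). As a share of all peaks with an annotated feature, first-intron peaks made up 11.3% at stage 11.5 and 12.3% at stage 9, a difference of -0.947 points (adjusted exact p = 0.126). Counted as distinct introns in place of peaks, first introns made up 34.5% of occupied introns at stage 11.5 and 24.6% at stage 9.

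The share of peaks decreased with intron number in both lists. Intron 2 held 19.7% of intron peaks at stage 11.5 and 18.1% at stage 9, and intron 3 held 169 of 1537 at stage 11.5 and 5488 of 49864 at stage 9. Introns beyond the tenth together held 10.9% at stage 11.5 and 13.7% at stage 9. If the peaks of every host transcript had been spread equally over its introns, whatever their length, 19.1% at stage 11.5 and 17.2% at stage 9 would have fallen in intron 1. The observed shares were 1.84 times this value at stage 11.5 and 1.74 times at stage 9. The lengths of the introns are not in the lists, so this value does not correct for long first introns.

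**Figure D1:**
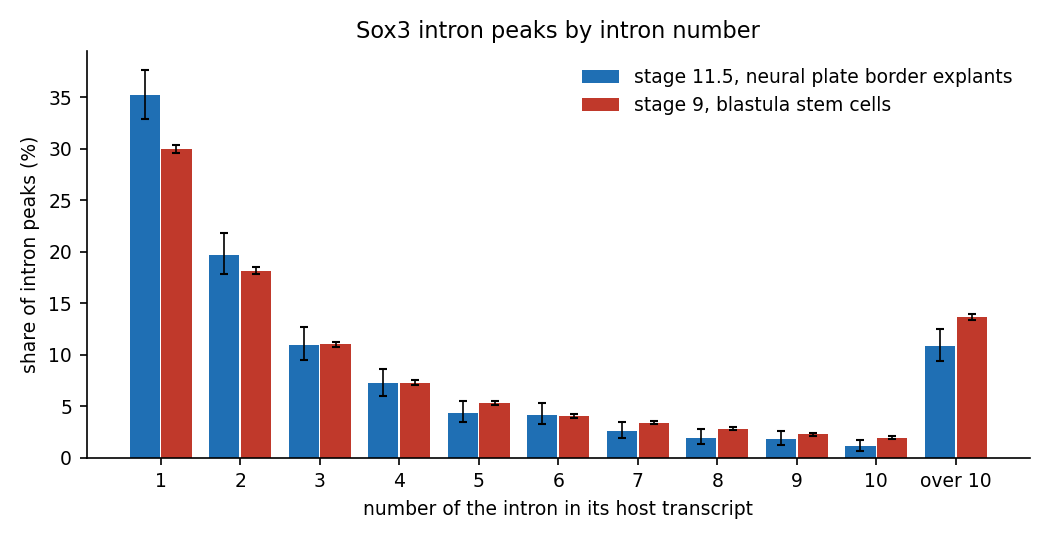
Share of intron peaks (y axis, %) by the number of the intron in its host transcript (x axis), with stage 11.5 in blue and stage 9 in red. Bars are shares of 1537 intron peaks at stage 11.5 and 49864 at stage 9, and lines are Wilson 95% intervals. Intron 1 holds 35.2% at stage 11.5 and 30.0% at stage 9, and the bars shrink from there except for the pooled class of introns over 10.

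The share was highest in host transcripts with 2 introns and lowest in those with 20 or more, in both lists. An equal spread over introns would by itself lower the share as the number of introns rises. This order therefore does not show a stronger preference for first introns in hosts with few introns. For a given number of introns the equal-spread value is its reciprocal, which falls faster than the observed shares did. Relative to that value, the share was thus larger in hosts with 20 or more introns than in those with 2. Intron lengths are not corrected for here either. In hosts with 2 introns, 58.1% of intron peaks at stage 11.5 and 61.7% at stage 9 lay in the first. In hosts with 4 introns the share was 45.7% at stage 11.5 and 36.2% at stage 9. Hosts with 7 to 9, 10 to 14 and 15 to 19 introns had shares of 26.5%, 25.8% and 26.9% at stage 11.5, with no decrease over these classes, and of 26.5%, 22.9% and 20.5% at stage 9. In hosts with 20 or more introns, 76 of 331 intron peaks at stage 11.5 (23.0%, 18.8 to 27.8%) and 1991 of 11605 at stage 9 (17.2%, 16.5 to 17.9%) were first-intron peaks. Without the hosts of a single intron, in which every intron peak is a first-intron peak, the shares were 31.0% (447 of 1443) at stage 11.5 and 26.1% (12362 of 47275) at stage 9. These were 2.24 times the equal-spread value at stage 11.5 and 2.06 times at stage 9.

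Within the stage 9 list the share varied with peak area, the score of a peak multiplied by its width in bp and divided by 1000. Where the score is at its maximum of 1000, the true area may be larger than this product. In 10 equal classes of area, the share of stage 9 intron peaks in first introns lay between 28.2% and 30.7% in the 9 smaller classes and was 35.7% (34.4 to 37.1%) in the largest. In 4 equal classes of stage 11.5 intron peaks it was 31.9%, 37.0%, 37.8% and 34.1% from the smallest to the largest area, with intervals that overlap. Intron peaks that overlapped a peak of the other stage were in first introns in 36.2% of cases at stage 11.5 (417 of 1152) and in 35.7% at stage 9 (403 of 1130). Intron peaks without such an overlap were in first introns in 32.2% of cases at stage 11.5 (124 of 385) and in 29.9% at stage 9 (14548 of 48734). Overlapping peaks of the stages are largely the same sites, so their shares are not independent of each other. The first-intron share at stage 9 was thus highest in the class of largest area.

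**Figure D2:**
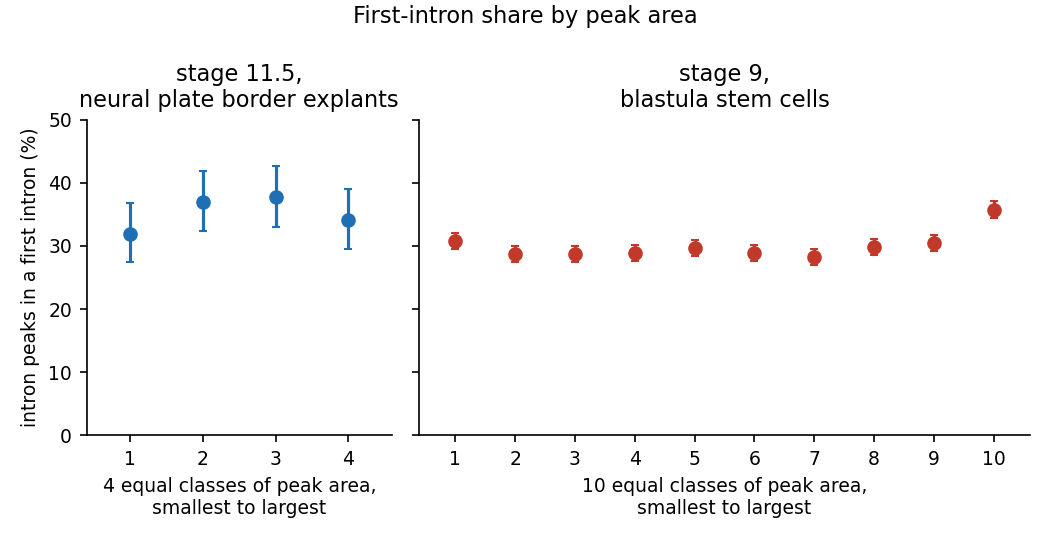
Share of intron peaks in a first intron (y axis, %) by class of peak area (x axis), in 4 equal classes at stage 11.5 (left, blue) and 10 equal classes at stage 9 (right, red). Points are shares and lines Wilson 95% intervals. At stage 9 the 9 smaller classes lie between 28.2% and 30.7% and the largest at 35.7%, while the stage 11.5 classes lie between 31.9% and 37.8%.

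The first-intron share also differed between chromosomes. Over the 18 assembled chromosomes it ranged from 14.8% (5S, 8 of 54 intron peaks) through a median of 36.0% to 58.5% (6S, 24 of 41) at stage 11.5, and from 25.5% (1L) through a median of 30.1% to 33.7% (6S) at stage 9. It was higher at stage 11.5 on 13 of the 18. The wide range at stage 11.5 goes with small numbers, since a chromosome held between 41 and 143 intron peaks there.

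First-intron peaks had nearly equal median distances from the nearest TSS at both stages in the full lists. The median distance regardless of direction was 5455 bp at stage 11.5 (quartiles 2066 and 12489 bp) and 5446 bp at stage 9 (2186 and 13028 bp). Within 5 kb of the nearest TSS were 259 peaks (47.9%) at stage 11.5 and 7115 (47.6%) at stage 9, a difference of 0.286 points (-3.97 to 4.57, adjusted exact p = 0.954). The difference was within counting error. Against the stage 9 list cut to its peaks of largest area, 47.9% at stage 11.5 and 53.3% at stage 9 were within 5 kb, a difference of -5.45 points (-10.8 to -0.0542, adjusted exact p = 0.107). Within 1 kb were 11.6% at stage 11.5 and 10.1% at stage 9, and within 20 kb 87.4% at stage 11.5 and 84.7% at stage 9. Later-intron peaks were farther away, with medians of 12380.5 bp at stage 11.5 and 15019 bp at stage 9. Their nearest TSS was that of the host for 43.4% at stage 11.5 and 44.9% at stage 9.

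The nearest TSS was not always that of the host. It belonged to the host transcript for 337 first-intron peaks at stage 11.5 (62.3%) and 9733 at stage 9 (65.1%), and to another transcript for 204 at stage 11.5 and 5218 at stage 9. Where it was another transcript, the peak lay upstream of that TSS in 107 of 204 cases at stage 11.5 (52.5%) and in 2612 of 5218 at stage 9 (50.1%). Assigning peaks by nearest TSS would therefore give more than 1 in 3 first-intron peaks to a transcript other than the host. Whether that transcript belonged to another gene was not tested, because no transcript identifier could be matched to a gene. Where host and nearest TSS were the same, the median distance downstream was 4967 bp at stage 11.5 (1600 and 12761 bp) and 4731 bp at stage 9 (1784 and 11974 bp). The closest peak lay 130 bp downstream at stage 11.5 and 101 bp at stage 9, and HOMER gives the bases right after a TSS to its promoter class.

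**Figure D3:**
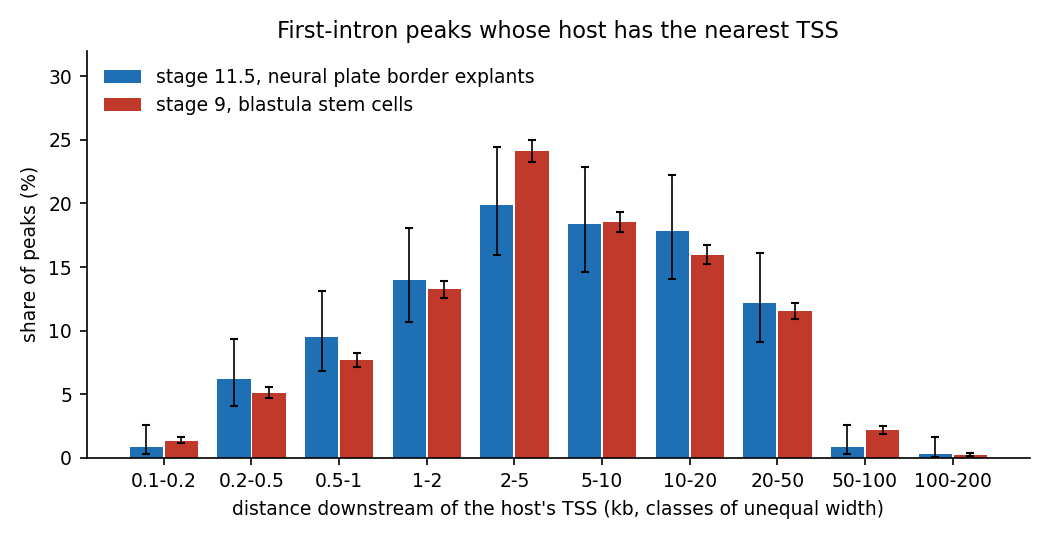
Share of first-intron peaks (y axis, %) by distance downstream of the host's TSS (x axis, kb, in classes of unequal width), for the 337 peaks at stage 11.5 (blue) and 9733 at stage 9 (red) whose nearest TSS is that of the host. Lines are Wilson 95% intervals. The fullest class at both stages is 2 to 5 kb, with 19.9% at stage 11.5 and 24.1% at stage 9.

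The transcripts that contained first-intron peaks had similar numbers of introns at both stages. The median was 6 introns per peak at stage 11.5 (quartiles 2 and 14) and 7 at stage 9 (2 and 14). Hosts with 1 intron held 94 first-intron peaks (17.4%) at stage 11.5 and 2589 (17.3%) at stage 9, a difference of 0.0587 points (-2.96 to 3.53, adjusted exact p = 0.954). Hosts with 10 or more introns held 202 (37.3%) at stage 11.5 and 5647 (37.8%) at stage 9, a difference of -0.432 points (-4.48 to 3.79, adjusted exact p = 0.954). Neither share differed beyond counting error.

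The number of peaks per first intron differed more than their position. At stage 11.5 the 541 peaks lay in 466 host transcripts, 1.16 per host, and at stage 9 the 14951 peaks lay in 7828 hosts, 1.91 per host. More than 1 first-intron peak was found in 60 hosts at stage 11.5 (12.9%, 10.1 to 16.2%) and in 3292 at stage 9 (42.1%, 41.0 to 43.2%). A later-intron peak of the same transcript accompanied the first-intron peak in 41 hosts at stage 11.5 (8.80%) and in 3097 at stage 9 (39.6%). With 27.6 times as many first-intron peaks in the stage 9 list, these counts cannot be told apart from the size of the lists. Where a host had several, neighbouring peaks were a median of 1827 bp apart at stage 11.5 and 2880 bp apart at stage 9.

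Most hosts at stage 11.5 were hosts at stage 9 as well. Both lists had a first-intron peak in 413 transcripts, which is 88.6% of the stage 11.5 hosts (85.4 to 91.2%) and 5.28% of the stage 9 hosts. The remaining 53 stage 11.5 hosts had no first-intron peak at stage 9. The same share was not computed for hosts of later-intron peaks, so it is not shown to be particular to first introns. The share of stage 9 hosts that also had a stage 11.5 first-intron peak differed with the number of peaks at stage 9. It was 2.27% (103 of 4536) for hosts with 1 stage 9 first-intron peak, 6.30% (150 of 2382) for those with 2 or 3, 15.1% (120 of 793) for those with 4 to 7 and 34.2% (40 of 117) for those with 8 or more. First introns with many stage 9 peaks were thus more often occupied at stage 11.5. Such introns also offer more sites that can be met, and the part of their length was not tested.

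The transcripts with most first-intron peaks show how these sites were arranged. Hosts are named by the identifiers of the lists, positions are on the 9.2 genome, and no gene name could be assigned. The host with most at stage 11.5, rna83735 on Scaffold55 (6 introns), had 4 peaks at Scaffold55:81354-96580 with scores of 258 to 299, 15702 to 30773 bp downstream of its TSS. At stage 9 it had 10 peaks over 31569 bp, with scores of 143 to 1000, and 3 of them covered the 4 stage 11.5 peaks in whole or in part. The broadest of these stage 9 peaks, at Scaffold55:81134-82384 (1251 bp, score 1000), held the stage 11.5 peaks at 81354-81476 and 81644-82094 together.

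The transcript gene42141_t on chromosome 9_10L (2 introns) differed from this pattern. It had 3 first-intron peaks at stage 11.5 within 835 bp (chr9_10L:31409943-31410777), with scores of 301, 1000 and 1000, at 247, 477 and 847 bp from its TSS. None of the 3 overlapped a stage 9 peak, and its first intron held no stage 9 peak. In rna12574 on chromosome 2L (1 intron), all 3 stage 11.5 peaks overlapped stage 9 peaks, of which the intron held 10, and the nearest TSS of the 3 peaks belonged to the neighbouring transcripts rna12575 and rna12576. In rna45126 on chromosome 2L (3 introns), 1 of 3 stage 11.5 peaks overlapped 1 of 8 stage 9 peaks.

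At stage 9 the fullest first introns were those of rna83068, rna85386 and rna25219. The transcript rna83068 (7 introns) had 16 stage 9 peaks at chr7S:60577709-60636508, over 58800 bp, and its scores ranged between 89 and 1000. At stage 11.5 it had 3, which overlapped the stage 9 peaks at 21876, 17356 and 15391 bp from the TSS, all at the maximum score. Of 15 stage 9 peaks over 84647 bp in rna85386 (chromosome 7L, 16 introns) and of 14 over 84169 bp in rna25219 (chromosome 1L, 14 introns), 1 each was overlapped at stage 11.5. The overlapped peak had a score of 1000 in either transcript. In these 3 introns most stage 9 peaks thus overlapped no stage 11.5 peak, but this was so of first-intron peaks in general. Of all stage 9 first-intron peaks, 2.70% overlapped a stage 11.5 peak. In hosts with 8 or more stage 9 first-intron peaks, 53 of 1092 did (4.85%).

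First-intron peaks were narrower and had lower scores at stage 11.5. Their median width was 143 bp at stage 11.5 (quartiles 95 and 213, range 32 to 1061 bp) and 241 bp at stage 9 (136 and 405, range 29 to 2602 bp). The score is the peak caller's measure of significance against the control libraries per base, and not a fold enrichment. Its median was 364 at stage 11.5 (247 and 551) and 522 at stage 9 (323 and 883). Altogether first-intron peaks covered 95147 bp at stage 11.5 and 4493528 bp at stage 9. The lists were called separately, from libraries sequenced on a NovaSeq at stage 11.5 and a NextSeq 500 at stage 9, so width and score are given without a test and their stage difference cannot be told apart from that of the libraries.

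Within each list, first-intron and later-intron peaks had close median widths. Median widths were 143 bp for first-intron and 141.5 bp for later-intron peaks at stage 11.5, and 241 bp for first-intron and 227 bp for later-intron peaks at stage 9. At stage 9 the maximum score was reached by 3049 first-intron peaks (20.4%) and 6403 later-intron peaks (18.3%), a difference of 2.05 points (1.30 to 2.82, adjusted exact p = 1.01e-06). At stage 11.5 it was reached by 51 first-intron peaks (9.43%) and 105 later-intron peaks (10.5%), a difference of -1.12 points (-4.12 to 2.15, adjusted exact p = 0.766). Only the stage 9 difference passed the test, and whether the stages differ in it was not tested. Both intron classes at stage 11.5 had fewer maximum scores than the 23.9% of peaks outside introns, whereas outside introns at stage 9 the share was 18.6%.

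**Figure D4:**
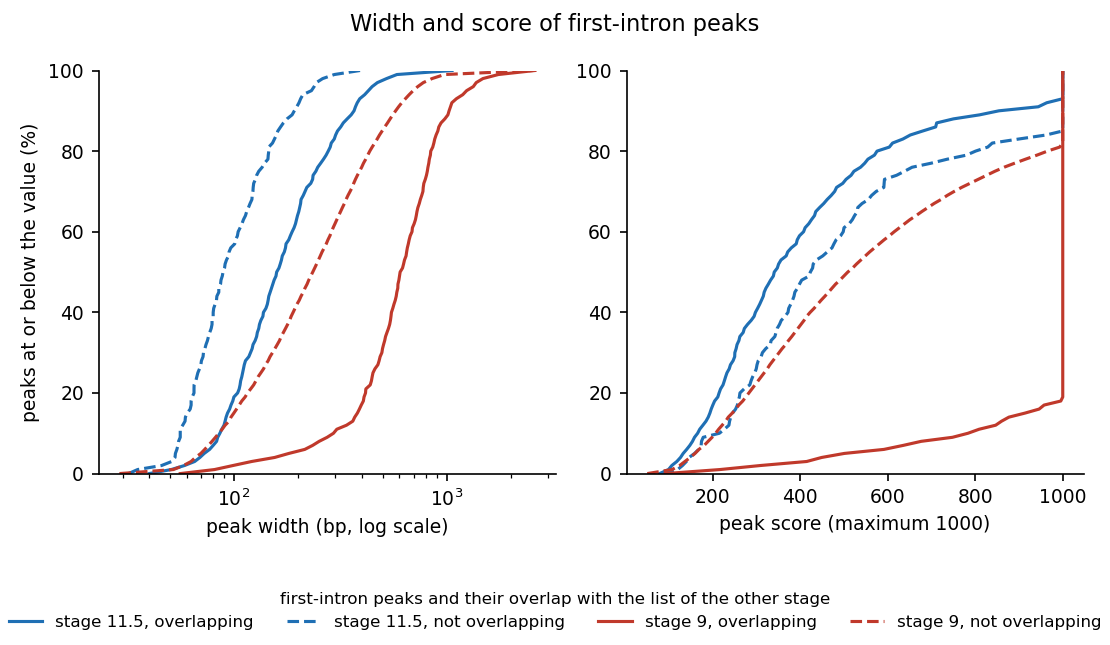
Cumulative share of first-intron peaks (y axis, %) against peak width (left, bp, log scale) and peak score (right, maximum 1000). Blue lines are stage 11.5 and red lines stage 9, solid for peaks that overlap a peak of the other stage (417 at stage 11.5, 403 at stage 9) and dashed for those that do not (124 at stage 11.5, 14548 at stage 9). At both stages overlapping peaks are wider, and 81.9% of the overlapping stage 9 peaks sit at the maximum score.

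Most first-intron peaks of stage 11.5 overlapped a stage 9 peak, and few of stage 9 overlapped a stage 11.5 peak. By an overlap of at least 1 bp, 417 of 541 first-intron peaks at stage 11.5 did so (77.1%, 73.4 to 80.4%), where 65.2% of all stage 11.5 peaks did. Among later-intron peaks the count was 735 of 996 (73.8%), and the difference of 3.28 points (-1.28 to 7.66) did not pass the test (adjusted exact p = 0.292). It reached 5.34 points (adjusted exact p = 0.0284) when peaks up to 1 kb apart counted as overlapping. It turned to -7.17 points (adjusted exact p = 0.0310) among peaks with no other peak of their list within 1 kb. That filter also removes stage 9 partners, and the 1 kb rule adds them. At stage 9, 29.9% of first-intron and 22.1% of later-intron peaks had another peak within 1 kb. How far this bears on either value was not tested. Outside introns 61.3% of stage 11.5 peaks overlapped. At stage 11.5 the intron peaks as a whole thus lay above the background, and by the 1 bp rule first introns were not set apart from later ones. Sequences not assigned to a chromosome held 23.1% of stage 11.5 peaks outside introns and 6.05% of intron peaks, which this comparison does not correct for.

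At stage 9, 403 of 14951 first-intron peaks overlapped a stage 11.5 peak (2.70%, 2.45 to 2.97%), against a background of 2.72% for all stage 9 peaks. Later-intron peaks did so in 727 of 34913 cases (2.08%). The difference of 0.613 points (0.321 to 0.921) passed the test (adjusted exact p = 0.000114), but it lost the call when the peak's midpoint had to lie inside the other peak (0.144 points) or 50% of it had to be covered (0.0740 points). It kept the call when peaks up to 1 kb apart counted as overlapping (1.33 points, adjusted exact p = 1.38e-13). The first-intron share at stage 9 was therefore close to the background, and above that of later introns by the 1 bp and 1 kb rules. Intron peaks as a whole overlapped in 2.27% of cases at stage 9, below the background, and peaks outside introns in 3.03%. On single chromosomes the first-intron share was above the later-intron share on 13 of 18 at stage 11.5 and on 14 of 18 at stage 9.

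**Figure D5:**
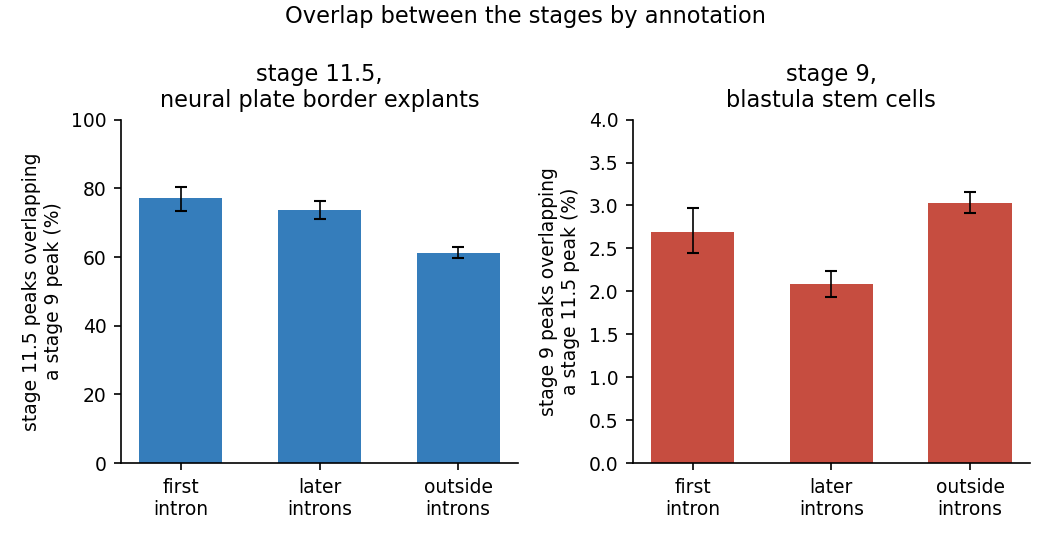
Share of peaks that overlap a peak of the other stage by at least 1 bp (y axis, %), for peaks in first introns, in later introns and outside introns (x axis), at stage 11.5 (left, blue) and stage 9 (right, red, with its own scale). Lines are Wilson 95% intervals. First introns stand at 77.1% at stage 11.5 and 2.70% at stage 9, later introns at 73.8% at stage 11.5 and 2.08% at stage 9, and peaks outside introns at 61.3% at stage 11.5 and 3.03% at stage 9.

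The overlapping peaks were nested. Of the 417 stage 11.5 first-intron peaks with an overlap, 361 (86.6%) lay wholly inside a stage 9 peak and 8 contained one. The stage 9 partner, taken as the peak with the longest overlap, was annotated to the first intron of the same host for 409 of them, and to a later intron, an exon, a promoter or a transcript end for the other 8. It was wider in 402 pairs (96.4%), had the higher score in 375 and an equal score in 29, and stood at the maximum score in 343 (82.3%). Median widths were 159 bp for the stage 11.5 peaks and 632 bp for their partners, and the midpoints were a median of 83 bp apart (36 and 143 bp). The site called at stage 11.5 was thus usually a narrow stretch inside a broad stage 9 peak. The widths of nested peaks limit how far apart their midpoints can be, and a preference for the middle was not tested.

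Overlap went with width and area in both lists. In 4 equal classes by width, 49.3%, 80.0%, 84.4% and 94.8% of stage 11.5 first-intron peaks overlapped a stage 9 peak, from the narrowest class (32 to 95 bp) to the widest (215 to 1061 bp). Stage 9 first-intron peaks in 4 equal classes of their own widths, from 29 to 136 bp up to 405 to 2602 bp, gave 0.375%, 0.428%, 1.10% and 8.88%. A wider peak has more bases that can meet another. By area the shares at stage 11.5 were 60.3%, 81.5%, 82.2% and 84.4%, and at stage 9 they were 0.134%, 0.348%, 1.04% and 9.26%. The stage 9 peaks shared with stage 11.5 were thus concentrated among the largest, and 330 of the 403 were at the maximum score. Later-intron peaks in 4 equal classes of their own area gave 64.3%, 71.9%, 81.1% and 77.9% at stage 11.5. At stage 9 they gave 0.137%, 0.424%, 0.836% and 6.93%, so the concentration among large peaks is not particular to first introns.

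The maximum score had the opposite relation to overlap at stage 11.5. Of the 51 stage 11.5 first-intron peaks at the maximum score, 31 overlapped a stage 9 peak (60.8%, 47.1 to 73.0%), and of the 490 below it 386 did (78.8%, 74.9 to 82.2%). At stage 9, 330 of 3049 at the maximum (10.8%) and 73 of 11902 below it (0.613%) overlapped a stage 11.5 peak. With the minimum area of 20, narrow peaks enter a list only with high scores. The part of width in the stage 11.5 relation was not tested. Distance from the TSS also varied with overlap at stage 11.5. Among peaks whose host had the nearest TSS, 32 of 56 within 1 kb (57.1%, 44.1 to 69.2%), 33 of 47 at 1 to 2 kb (70.2%) and 56 of 67 at 2 to 5 kb (83.6%, 72.9 to 90.6%) overlapped a stage 9 peak, and beyond 20 kb 33 of 45 did (73.3%). Over the same distances the stage 9 shares lay between 2.21% and 2.96%, with no such order. These splits were chosen with the data in view and are given without a test.

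The 124 stage 11.5 first-intron peaks without a stage 9 overlap were narrower than the 417 with one, with a median width of 89 bp for the 124 and 159 bp for the 417. Their median score was 423.5, against 341 for the overlapping peaks, but their median area was smaller, at 33.0 against 50.3. Peaks were called with a minimum area of 20, so narrow peaks are listed only with high scores. The higher median score therefore does not show stronger sites. The 124 peaks lay closer to the nearest TSS, at a median of 3362 bp against 5618 bp. Of the 124, 41 (33.1%) came within 1 kb of a stage 9 peak, and 70 (56.5%) lay in a transcript with a stage 9 peak elsewhere in the same first intron. Unplaced scaffolds, sequences not assigned to a chromosome, held 15 of them (12.1%) and 24 of the overlapping peaks (5.76%).

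Scaffolds held a larger share of the first-intron peaks at stage 11.5. They carried 39 of 541 at stage 11.5 (7.21%) and 727 of 14951 at stage 9 (4.86%), a difference of 2.35 points (0.422 to 4.86, adjusted exact p = 0.0489), which was 1.98 points (adjusted exact p = 0.292) against the stage 9 list cut by area. Among all peaks the scaffold share was 18.2% at stage 11.5 and 7.13% at stage 9, and intron peaks can only lie on scaffolds with an annotated transcript. Xenopus laevis is an allotetraploid with L and S copies of each chromosome. Among placed first-intron peaks, 204 of 502 at stage 11.5 (40.6%) and 6229 of 14224 at stage 9 (43.8%) were on S chromosomes, a difference of -3.15 points (-7.44 to 1.27, adjusted exact p = 0.292). Among all placed peaks the S chromosome share was 42.3% at stage 11.5 and 44.8% at stage 9. The S chromosomes thus held fewer peaks than the L chromosomes in the whole lists as well, which is not particular to first introns. These counts are not corrected for the length or gene number of the chromosomes. The difference in first-intron peaks between the stages was within counting error.

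The first-intron peaks of largest area at stage 11.5 all overlapped a stage 9 peak. The largest was in the only intron of rna93445 (Scaffold568:1697-2475, 779 bp, score 1000), 202 bp from the TSS. The next lay in rna93983 (chr8L:28631438-28632051, 614 bp, score 1000), a transcript with 15 introns, 1585 bp from the TSS. It was followed by a peak in rna37208 (Scaffold31:1571257-1571841, 585 bp, score 1000), which was at -6995 bp, upstream of the TSS of the neighbouring transcript rna37209. The others were in rna86891 (chr2S:32271413-32271954, 542 bp, score 1000), 4273 bp from the TSS, and in rna92798 (chr8L:103749140-103749720, 581 bp, score 918), 5602 bp from it. Stage 9 peaks covered between 282 and 608 bp of each of the 5.

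At stage 9 the 5 first-intron peaks of largest area were several times wider, and all had a score of 1000. The peak in rna58604 (chr9_10L:94045455-94048056) was 2602 bp wide and shared 84 bp with a stage 11.5 peak. The peak in rna75212 (chr7S:56368332-56370873), 2542 bp wide and 1777 bp from the TSS, had no stage 11.5 overlap, and neither had the 2085 bp peak in the only intron of rna23319 (chr9_10L:65867224-65869308), 317 bp from the TSS. The peaks in rna96963 (chr7L:69108050-69109869, 1820 bp) and rna71587 (chr9_10S:21737958-21739772, 1815 bp) shared 154 and 112 bp with stage 11.5. Large stage 9 peaks thus included sites that were not called at stage 11.5.

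The longest shared stretches lay in 5 pairs of first-intron peaks. In rna91574 (9 introns) the stage 11.5 peak Scaffold40:1348259-1349319 (1061 bp, score 419) and the stage 9 peak Scaffold40:1348407-1349512 (1106 bp, score 1000) shared 913 bp, 17532 bp from the TSS. In rna296 (2 introns) the stage 11.5 peak chr9_10S:99282746-99283415 (score 493) lay wholly in the stage 9 peak chr9_10S:99282703-99283515 (813 bp, score 1000), and both shared 670 bp. The pair in rna93983 shared 608 bp, with scores of 1000 at either stage and midpoints 16 bp apart. The pairs in rna12574 and rna86891 shared 559 and 542 bp, the whole width of the stage 11.5 peak, inside stage 9 peaks of 1028 and 841 bp. In the 5 pairs the stage 9 score was 1000, and it was higher than that of the stage 11.5 peak in 3.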

How the data were processed

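Sox3 ChIP-seq was analysed from 1 peak list per stage, each from 3 Sox3 and 3 control libraries. Explants were fixed for 15 min with formaldehyde (1% in the methods, 10% in the labels), and chromatin on beads was tagmented with Tn5 for 40 min. The authors used fastp for trimming and bowtie2 for alignment to build 9.2 of the Xenopus laevis genome, processed alignments with samtools, called peaks with Genrich (minimum area 20, mitochondrial sequence excluded) and annotated them with HOMER. Picard is named in the submitters' processing notes without its role. Versions are not given in the sources used here. The deposited peak score is Genrich's, a whole number of at most 1000. The deposited distance to the TSS is in bp between peak centre and nearest TSS, and positions are 1-based. All replicates are named in the header of the stage 9 list, but not in that of stage 11.5.

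Members were peaks annotated "intron 1 of" a transcript, so intron number and host depend on the transcript HOMER chose and on its feature order, which puts promoters and exons before introns. Peak counts were tested by Fisher's exact test, two-sided, with Benjamini-Hochberg adjustment over 10 tests (threshold 0.05), with Wilson and Newcombe 95% intervals. The functions were tested on simulated data. Python 3.11.15, numpy 2.4.6, scipy 1.17.1, pandas 2.3.3 and matplotlib 3.10.9 were used. Read depth is unknown, and intervals cover counting error only and take peaks as independent. Named regions were, at each stage, the 5 of largest area and the 3 hosts with most members, plus the 5 longest overlaps and the 3 hosts with most stage 11.5 members among hosts at both stages, ties going by area, then position. Members and lists were chosen with earlier results of these data known. None of 10763 transcript identifiers (0) matched the gene table used here, of assembly 10.1, so genes are not named, and no sequence is shown. Alternatives covered the overlap rule, the peaks kept, the denominator, the distance and intron limits, and introns in place of peaks.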

Additional observations from a re-analysis of the deposited data

How the results depend on the processing

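Of 79 alternatives, 46 kept direction and side of the threshold (or moved a value with no test by less than its interval), and 11 turned the direction. Among the others, 5 lost the call and 2 gained it. Of the 30 alternatives of values with no test, 15 moved the value outside its interval. With the stage 9 list cut to 5300 peaks by area, the first-intron share differed by -3.23 points between stages, and as a share of annotated peaks by -0.947 points. The other settings gave between 4.79 points (chromosomes only) and 9.89 points (distinct introns). The overlap of first-intron minus later-intron peaks at stage 11.5 was 5.61 points against the cut list (adjusted exact p = 0.0467) and 5.34 points within 1 kb, a rule that adds partners. It was -7.17 points among peaks with none of their own list within 1 kb, a filter that by construction also removes partners. At stage 9 it was 0.160 points in the cut list, 0.354 among isolated peaks, 0.0740 with 50% covered and 0.144 by midpoint, none of them past the threshold. Past it were 1.33 points within 1 kb, 0.701 at or above the median score and 0.577 on chromosomes. The scaffold difference was 1.98 points in the cut list.

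Differences in distance, host introns and S chromosome share, which passed no test in the full lists, turned sign as well, still without passing. The share within 5 kb differed by -5.45 points with the cut list, by -0.235 at or above the median score and by -1.06 where the host had the nearest TSS, while isolated peaks gave 4.13 points. The share in hosts with 10 or more introns differed by 0.178 points on chromosomes and by 1.82 counted as hosts, and with a limit of 20 introns by 0.731. The share in hosts with 1 intron differed by -0.548 points on chromosomes, and the S chromosome share by 1.41 points with the cut list.

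The share of stage 11.5 first-intron peaks that overlapped was 69.5% among peaks at or above their list's median score, 33.8% with the cut list, 47.3% among isolated peaks and 84.7% within 1 kb. At stage 9 it was 2.19%, 19.95%, 2.16% and 4.01% under these settings, 0.575% with 50% covered and 1.46% by midpoint. Median stage 9 width was 805 bp in the cut list and 202 bp below the maximum score. Median score below the maximum was 338.5 at stage 11.5 and 430.5 at stage 9, and it was 1000 in the cut stage 9 list. The median area, a different unit, was 47.3 at stage 11.5 and 107 at stage 9. Except for fewer or looser partners set by the rules themselves, the cause was not tested.

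No paired analysis was possible because replicates share 1 pooled list per stage, and none was left out for the same reason. Depth is unknown, so a site missing from a list was not called there, which does not show that it was unbound.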
